A study of Caenorhabditis elegans with 6 samples.

Results

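Wide open regions are peaks of accessible chromatin that span 1400 bp or more. They were taken from ATAC-seq of Caenorhabditis elegans nuclei, an assay in which a transposase (Tn5) inserts sequencing adapters into accessible DNA. The members are all peaks of that width in the list deposited for total nuclei, 303 of its 2683 peaks, together with the peaks of the list deposited for neuronal nuclei that overlap them. The neuronal group comprised 3 samples of nuclei sorted as positive for GFP and the DNA stain DAPI. The total group comprised 3 samples of nuclei sorted on DAPI alone, which therefore includes neuronal nuclei. All samples came from mixed-stage worms, mostly larvae, of the strain OH11061, which carries the transgene otIs381, a nuclear GFP reporter active throughout the nervous system, and each sample held 50000 nuclei.

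Open chromatin is DNA that is not wrapped tightly by nucleosomes, and it marks promoters, enhancers and other sites bound by proteins. Genes of C. elegans lie close together, and a single open stretch has room to reach from the end of a gene across its neighbour. Many genes are transcribed jointly in operons, which were not analysed here. Genes used by every cell, such as those for ribosomal proteins, are short and heavily transcribed, and they stand beside genes with a role in few cells.

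The deposited data are 1 peak list per group on build ce11, without a value per sample, and the number of reads behind each sample is unknown here. Everything below therefore describes the lists labelled neuronal and total. No test was run, because peaks are not replicates of a condition, and a difference between the lists cannot be set against a spread between samples. In a mixture of nuclei, fewer open nuclei and less opening per nucleus cannot be told apart. Of 33 marker genes of neurons, 9 had a peak within 1000 bp in the neuronal-labelled list and 15 in the total-labelled list. Of 24 body-wall muscle markers, 6 had one in the neuronal-labelled list and 8 in the total-labelled list. For germline markers the count was 2 of 17 in either list. It was 1 of 14 for intestinal, 1 of 10 for hypodermal and 1 of 8 for glial markers in either list. Over all 19971 protein-coding genes it was 3039 in the neuronal-labelled list and 3588 in the total-labelled list. A gene without a listed peak is not shown to be closed, since both lists keep only peaks that ranked alike in repeated calls.

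Wide regions were of moderate height, and they differed from other peaks in width by construction. Their median width in the total-labelled list was 1622 bp (range 1401 to 3506 bp), against 775 bp for the 2380 narrower peaks. They covered 529 kb, or 21.5% of all bases in that list. The authors' fold enrichment, which compares reads at the summit with a local background, had a median of 9.41 in wide regions and 10.8 in narrower peaks. Only 20 wide regions (6.60%) lay among the highest 20% of the list by fold, and 69 (22.8%) lay among the lowest 20%. Across all 2683 peaks the Spearman correlation of width and fold was 0.0363, and within the 303 wide regions it was -0.20, both as descriptions across peaks of the same library pool.

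**Figure D1:**
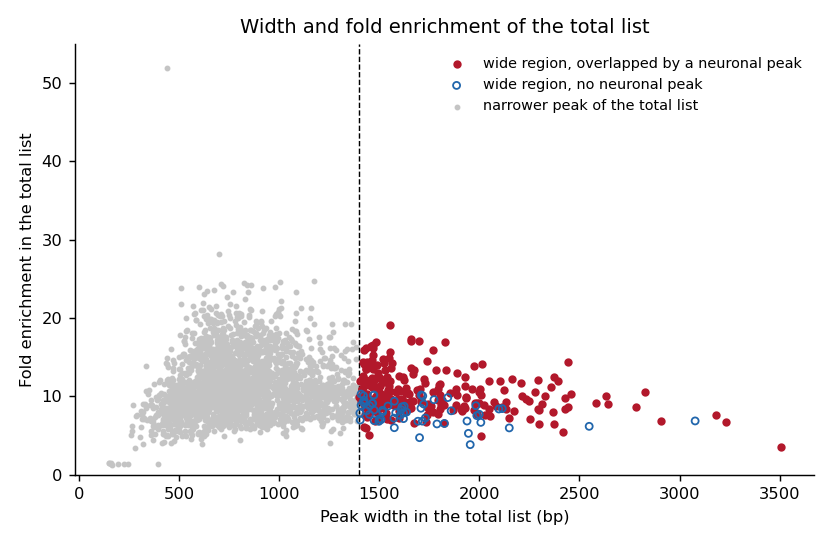
Fold enrichment (y axis) against peak width in bp (x axis) for the 2683 peaks of the total-labelled list. Filled red points are the 244 wide regions with an overlapping neuronal-labelled peak, open blue circles are the 59 without one, grey points are narrower peaks, and the dashed line marks 1400 bp. The highest wide region reached a fold of 19.1, and the open circles all lie at 10.3 or below.

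The reads over the summit (pileup) and the local background could be recovered from the deposited fold and p-value. The median pileup was 1155 reads in wide regions and 1210 reads in narrower peaks, and the median local background was 118.6 reads in wide regions and 112.6 reads in narrower peaks. Only 1 summit is deposited per peak. The quartiles of its position, as a percent of the peak's width, were 32.1% and 67.0% in wide regions and 42.2% and 58.0% in narrower peaks. The nearest other peak of the list was a median of 14959 bp away for wide regions and 11047.5 bp away for narrower peaks, and 4 wide regions had a neighbour within 1000 bp.

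The threshold cut through a continuous range of widths. Just inside it lay the region at gcy-35, a soluble guanylyl cyclase gene of oxygen-sensing neurons, with 1401 bp and a fold of 9.93. It was followed by the region at ecps-1 and atx-2 (1403 bp, fold 11.96) and the region at F21D5.7 and F20C5.7 (1404 bp, fold 7.88). Just outside lay the peak at snx-13, snr-1 and Y116A8C.43 with 1399 bp (fold 8.84). The peaks at num-1 (fold 7.70) and T11G6.5 (fold 10.9) had 1398 bp each.

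Most wide regions had 2 or more genes within 1000 bp. In all, 680 protein-coding genes lay within 1000 bp of a wide region, and 2 of them, agl-1 and fcho-1, lay near 2 wide regions. No gene lay within that distance for 9 regions, 1 gene for 47, 2 genes for 141, 3 genes for 73, 4 genes for 31 and 5 genes for 2. The share with 2 or more genes was 81.5% in wide regions (95% exact binomial interval 76.7% to 85.7%), against 41.2% in narrower peaks. Such intervals cover counting error only. A wider peak also brings a longer stretch within reach of genes. Counting only genes that overlap the peak, the share with 2 or more was 60.4% in wide regions.

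A gene end is here the first or last base of an annotated gene. The gene table has no strand, so starts and stops of transcription are not separated. Wide regions covered a median of 2 gene ends and narrower peaks a median of 0. None was covered by 46 wide regions, 1 by 74, 2 by 121, 3 by 21, 4 by 36, 5 by 1 and 6 by 4. At least 2 ends lay inside 60.4% of wide regions (54.6% to 65.9%) and inside 16.1% of narrower peaks (14.6% to 17.6%). A wider peak has more room for gene ends. Per kb of peak, wide regions held 1.04 gene ends and narrower peaks 0.770. Peaks of 1000 to 1200 bp, which are not members, held 1.003 per kb.

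**Figure D2:**
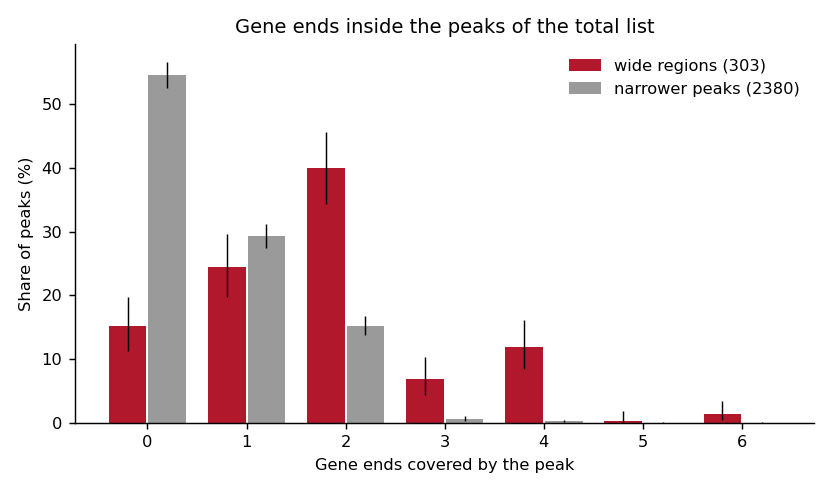
Share of peaks in percent (y axis) by the number of annotated gene ends inside the peak (x axis), for the 303 wide regions (red, left) and the 2380 narrower peaks (grey, right) of the total-labelled list. Error bars are 95% exact binomial intervals. The tallest red bar is at 2 ends (39.9%) and the tallest grey bar at 0 ends (54.6%).

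A whole gene lay inside 61 of the wide regions (20.1%) and inside 23 of the narrower peaks (0.966%). A wider peak has more room for a whole gene, and an enclosed gene cannot be longer than its peak. Both the shares and the lengths of enclosed genes are therefore bound to width. The 66 genes enclosed in wide regions had a median length of 695 bp (307 to 1944 bp). The median was 2315 bp for all genes within 1000 bp of a wide region. It was 2006 bp for all 19971 protein-coding genes of the 6 nuclear chromosomes. The longest enclosed gene was hrpa-1, which encodes a protein that binds RNA in splicing. Its region with F42A6.6, on chromosome IV from 3336554 to 3339195, had 2642 bp and a fold of 9.07 in the total-labelled list.

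The 4 regions with 6 gene ends each enclosed 2 whole genes. The largest of them was found on chromosome IV from 7923977 to 7927159, 3183 bp wide with a fold of 7.68. It covered C49H3.3 and the ribosomal protein gene rps-2, an end of the exportin gene xpo-3 and an end of C49H3.12, and ended within 1000 bp of gcy-8, a receptor guanylyl cyclase of the thermosensory neurons. The neuronal-labelled peak there was 2986 bp wide with a fold of 7.20. The region at polh-1, rps-15A, F53A3.7 and mboa-6, on chromosome III from 1949899 to 1952254, was 2356 bp wide in the total-labelled list and 2368 bp in the neuronal-labelled list.

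The other 2 regions of this kind were also on chromosome III. The region at taf-11.3, urm-1, sip-1 and sly-1 (10505008 to 10507381) had 2401 bp and a fold of 6.52 in the neuronal-labelled list, against 2374 bp and 6.43 in the total-labelled list. These genes encode a TFIID subunit, a ubiquitin-related modifier, a small heat shock protein and a factor of vesicle fusion. The region at the splicing factor gene prp-19, K10D2.5, emb-1 and cid-1 (5171836 to 5174150) was 1345 bp wide in the neuronal-labelled list, against 2315 bp in the total-labelled list. The folds there were 9.46 in the neuronal-labelled list and 9.10 in the total-labelled list.

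**Figure D3:**
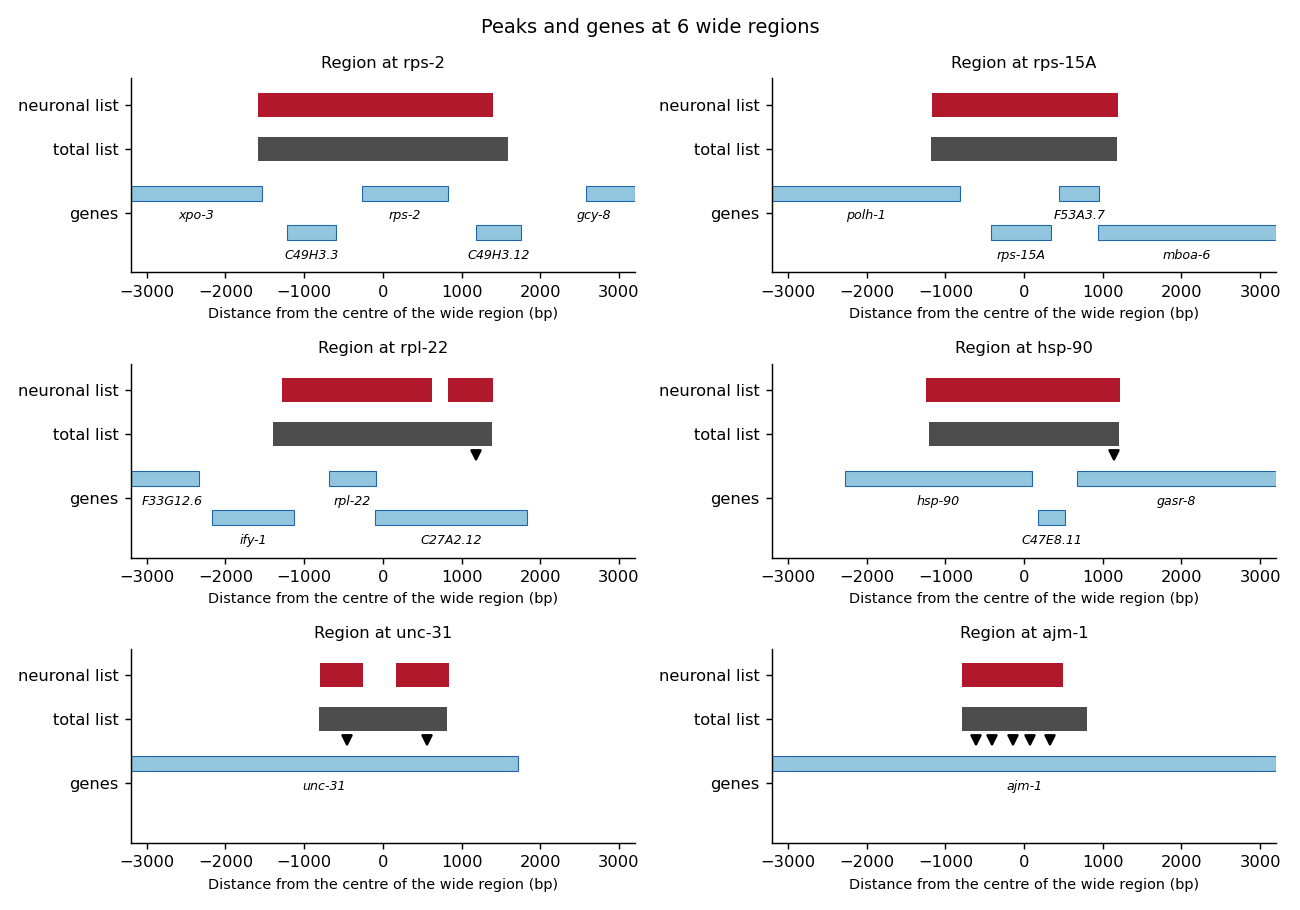
Extent of the neuronal-labelled peaks (red, upper row), the total-labelled peak (dark grey, second row) and protein-coding genes (blue, cut at the panel edges) at 6 wide regions, by distance in bp from the centre of the region. Black triangles mark tRNA, snRNA and snoRNA genes inside the region. At rps-2 and rps-15A the peaks span whole genes and reach their neighbours, and at rpl-22 and unc-31 the neuronal-labelled list has 2 peaks.

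The widest region of all held no protein-coding gene within 1000 bp. It lay on chromosome I from 15064060 to 15067565 and overlapped rrn-2.1 and rrn-3.1, genes of the ribosomal RNA array, whose repeated copies the assembly holds only in part. Its width was 3503 bp in the neuronal-labelled list and 3506 bp in the total-labelled list, with folds of 3.51 (neuronal-labelled) and 3.56 (total-labelled), the lowest fold of any wide region. Its local background of 5841 reads in the total-labelled list was the highest of all peaks. The labels do not state how reads with several genomic matches were treated.

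The next widest regions each lay at 2 or more genes. The second had 3233 bp and covered 5 gene ends at psf-3 (a DNA replication factor), icd-2 (a subunit of the complex that binds nascent polypeptides at the ribosome) and wwp-1 (a ubiquitin ligase). The third was the region at rps-2 described above. The fourth, at rab-1, which encodes a GTPase of traffic from the endoplasmic reticulum to the Golgi, had 3078 bp and a fold of 6.88 and was not overlapped by a neuronal-labelled peak. The fifth, at fkb-1 and kdin-1, had 2915 bp in the neuronal-labelled list and 2910 bp in the total-labelled list. The sixth lay at par-5, a 14-3-3 protein gene, and M117.3, with 2826 bp and a fold of 10.5.

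Ribosomal protein genes were frequent beside wide regions. Of 78 genes in the table whose symbols begin with rps- or rpl-, 57 lay within 1000 bp of a total-labelled peak. Of these, 31 lay near a wide region, or 54.4% (exact interval 40.7% to 67.6%). The 31 genes lay near 29 wide regions, so they are not independent counts and the interval is no test. Over all genes near a total-labelled peak, 680 of 3588 lay near a wide region, or 18.95%. Counted by peaks, 29 of 58 peaks near a ribosomal protein gene were wide (50.0%), against 303 of 2683 in the whole list (11.3%). The rps- genes, of the small subunit, contributed 18 of 24 with a peak, and the rpl- genes, of the large subunit, 13 of 33. Genes of the ribosomal stalk have other symbols (rplp-) and were not in the list, so the wide region at etfm-1, rplp-2.1 and pqn-20 is counted with the others below.

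These 29 regions had a median width of 2122 bp, against 1595.5 bp in the other 274 wide regions. They covered a median of 4 gene ends and the others 2. A whole gene lay inside 25 of the 29. Their median fold of 9.27 was near the 9.43 of the other wide regions, and it ranged from 6.69 at rpl-10L to 12.02 at rpl-10a. The region at rpl-10a, Y71F9AL.12 and Y71F9AL.9, on chromosome I from 2875146 to 2877250, had folds of 11.5 in the neuronal-labelled list and 12.02 in the total-labelled list, and widths of 2205 bp (neuronal-labelled) and 2105 bp (total-labelled). Overlapping neuronal-labelled peaks were listed for 25 of the 29 (86.2%), against 219 of the other 274 (79.9%). None was listed at rpl-10L, rpl-19, rpl-26 and rps-12.

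The other lists also hold set symbols, so each count is of those symbols and not of all genes of that kind. It is set against the 18.95% of all genes with a peak that lay near a wide region. Genes can share a region and are not independent counts, so the intervals are descriptions and not tests. Genes named hsp- or dnj-, most of which encode chaperones or their cofactors, had 7 of 25 near a wide region (28.0%, exact interval 12.1% to 49.4%), an interval that includes the share of all genes. The region at hsp-90, C47E8.11 and gasr-8 had 2453 bp in the neuronal-labelled list and 2419 bp in the total-labelled list, with folds of 5.24 (neuronal-labelled) and 5.42 (total-labelled). At hsp-1, which encodes a constitutive HSP70, the total-labelled region of 1955 bp had a fold of 3.85 and no neuronal-labelled peak. The remaining members of the list were the J-domain genes dnj-5, dnj-12, dnj-19, dnj-25 and dnj-28. Chaperone genes with other symbols, such as sip-1 and the chaperonin subunit gene cct-8, also lay at wide regions and are outside this count. Translation factors named eef-, eif- or ife- had 4 of 15 (26.7%, 7.79% to 55.1%), an interval that includes it too. They were eef-1B.1, eif-2Bgamma, eif-3.G and eif-3.H.

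The lists of transcription factors had shares below the 18.95% of all genes, from few genes each. Nuclear hormone receptors had 4 of 48 (8.33%, exact interval 2.32% to 19.98%), namely nhr-15, nhr-46, nhr-47 and nhr-86. Homeobox genes had 2 of 14 (14.3%, 1.78% to 42.8%), ceh-43 and ceh-100. The list of other transcription factors had 3 of 21 (14.3%, 3.05% to 36.3%), elt-4, lin-29 and nfya-1. All of these intervals include the share of all genes. Genes for bHLH and bZIP factors had 0 of 18 with a peak (exact interval 0% to 18.5%). The list of chromatin genes had 3 of 30 (10.0%, 2.11% to 26.5%), namely mes-2, set-1 and swsn-3. It leaves out others that lay at wide regions, among them ash-2, dpy-30, mrg-1, nurf-1, lsd-1, jhdm-1 and epc-1. Cuticle collagens had 1 of 16 (6.25%, 0.158% to 30.2%), bli-2. Histone genes had 2 of 15 (13.3%, 1.66% to 40.5%), his-72 and htz-1, both of which encode variants that are made outside of DNA replication. The intervals of the chromatin, collagen and histone lists also include the share of all genes.

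Neuronal markers had 3 of 15 genes with a peak near a wide region (20.0%, exact interval 4.33% to 48.1%), close to the 18.95% of all genes. The region at unc-31, which encodes a factor of dense-core vesicle release, lay inside that gene, and the region at unc-11, a clathrin adaptor gene, had 1617 bp in the neuronal-labelled list and 1592 bp in the total-labelled list. At snb-1, the synaptobrevin gene, the total-labelled region of 1826 bp (fold 6.55) had no neuronal-labelled peak. Body-wall muscle markers had 1 of 8 (12.5%), deb-1, in a region of 4 gene ends that encloses rps-4. The germline, intestinal, hypodermal and glial lists had none near a wide region, out of 2, 1, 1 and 1 genes with a peak.

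A tRNA, snoRNA, snRNA, rRNA or miRNA gene overlapped 55 of the wide regions. Narrower peaks were not counted for these kinds together. A tRNA gene overlapped 29 wide regions (9.57%) and 332 narrower peaks (13.9%). Of the 29 regions, 21 held 2 or more tRNA genes. Such genes carry their promoter within the transcribed part. The region with most of them lay inside ajm-1, an apical junction gene, on chromosome X from 9090475 to 9092060, and held 5. Its fold was 9.39 in the neuronal-labelled list and 9.21 in the total-labelled list, and its width 1284 bp (neuronal-labelled) and 1586 bp (total-labelled).

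The 29 regions with tRNA genes covered a median of 1 gene end, against 2 in the other 274, and had a median fold of 10.2, against 9.37. A neuronal-labelled peak overlapped 28 of them (96.6%), against 216 of the other 274 (78.8%). Over all total-labelled peaks this share was 82.6%. It was not counted for narrower peaks with a tRNA gene, so it is not read as particular to wide regions. The product of a snoRNA gene guides the modification of other RNAs and is often cut from an intron. Such a gene overlapped 20 wide regions (6.60%) and 98 narrower peaks (4.12%). In 8 of these 20 a ribosomal protein gene was also near. The region at W09D6.5 and hmt-1 held sls-2.14 and sls-2.15, genes of the spliced leader RNA that is joined to downstream genes of operons. Per kb, wide regions held fewer small RNA genes than narrower peaks, with 107.6 tRNA genes per 1000 kb in wide regions and 206.5 in narrower peaks. For snoRNA genes it was 41.5 in wide regions and 51.8 in narrower peaks.

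Of the 46 wide regions that covered no gene end, 16 overlapped a tRNA, snoRNA, snRNA, rRNA or miRNA gene, against 55 of all 303. Of the 9 regions with no protein-coding gene within 1000 bp, 6 overlapped such a gene. Narrower peaks without a gene end were not counted in this way, so neither count is read as particular to wide regions. Among the 6 was the region on chromosome X from 11791080 to 11792967, which held mir-239.1 and mir-239.2. Its folds were 10.7 in the neuronal-labelled list and 10.2 in the total-labelled list. Some of these regions are among the 22 wide regions that lay entirely inside a gene, at median width 1540 bp and median fold 10.5.

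Few wide regions lay on the X chromosome. It held 17 of the 303 (5.61%, exact interval 3.30% to 8.83%), against 495 of the 2380 narrower peaks (20.8%, 19.2% to 22.5%). Autosomes held between 46 (chromosome V) and 64 (chromosome III). Of all total-labelled peaks on X, 3.32% were wide, and on the autosomes this share was between 11.7% (V) and 13.9% (IV). The same split was seen in the neuronal-labelled list, where 4.03% of peaks on X and 12.2% to 15.4% of peaks on an autosome had 1400 bp or more. Median widths of all total-labelled peaks differed less, with 784.5 bp on X and 824 to 853.5 bp on the autosomes.

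**Figure D4:**
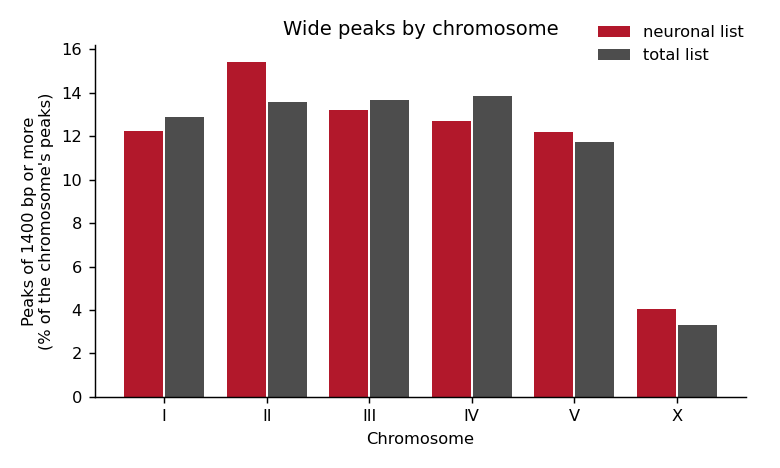
Peaks of 1400 bp or more as a percent of the peaks on each chromosome (y axis), for the neuronal-labelled list (red, left) and the total-labelled list (dark grey, right). X stands at 4.03% (neuronal-labelled) and 3.32% (total-labelled), and no autosome is below 11.7% in either list.

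The wide regions on X covered fewer gene ends than those on autosomes. Only 1 of the 17 covered 2 or more gene ends, both of C39B10.7, while 182 of 286 on autosomes did. The GATA factor gene elt-4 lay 720 bp from that region. tRNA genes lay inside 7 of the 17 and inside 22 of the 286. Narrower peaks on X were not counted for gene ends or tRNA genes, so neither difference is read as particular to wide regions. The widest region on X, with 2031 bp in both lists, lay at gpd-2, mai-1 and spc-1. Its genes gpd-2, for a glycolytic dehydrogenase, and mai-1 belong to an operon. The highest fold on X was found near calu-1 and ZC8.6, with 13.5 in the neuronal-labelled list and 16.1 in the total-labelled list.

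The 10 wide regions of highest fold had widths from 1433 to 1830 bp, in the narrower part of the range up to 3506 bp. The first was the region at cul-3, a ubiquitin ligase scaffold gene, and arid-1 on chromosome V from 184919 to 186474. Its fold was 18.8 in the neuronal-labelled list and 19.1 in the total-labelled list, with widths of 1265 bp (neuronal-labelled) and 1556 bp (total-labelled). The second, at mrpl-37, a mitochondrial ribosome gene, and lin-38, had folds of 15.1 and 17.3 in the neuronal-labelled and total-labelled lists. The remaining 8 of the 10 highest had total-labelled folds from 16.1 to 17.1. They lay at Y77E11A.7 and jtr-1, at Y38F2AR.3, sec-61.B and trap-3, at apd-3, at dnj-5 and aff-1, at mau-2, at eif-2Bgamma and C15F1.5, at F59C6.18, nlp-4 and exos-3, and at calu-1 and ZC8.6. sec-61.B and trap-3 act at the translocon, apd-3 in the AP-3 adaptor and mau-2 in loading cohesin.

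In 5 of these 10 regions a pair of gene ends was covered, in 4 none, and in the region at sec-61.B 4. All 10 were overlapped by a neuronal-labelled peak. By gene ends, median folds were 10.8 for 0 ends, 9.68 for 1, 9.22 for 2, 10.04 for 3 and 8.46 for 4 or more.

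Compared between the lists, wide regions were found again about as often as other peaks. A neuronal-labelled peak overlapped 244 of the 303 by at least 1 bp (80.5%, exact interval 75.6% to 84.8%), and over all total-labelled peaks this share was 82.6%. The neuronal-labelled peak was itself 1400 bp or wider in 189 regions, or 62.4% of the 303 (56.7% to 67.9%), a share that was 9.43% over the whole total-labelled list. It was narrower than 1400 bp in 55, and 59 had no overlapping peak. Summits coincided within 10 bp in 204 of the 244 (83.6%), against 87.3% of all shared total-labelled peaks.

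Widths of the 244 regions differed by a median of -11 bp, neuronal-labelled minus total-labelled (range -1646 to 1673 bp). In 126 (51.6%) the difference was at most 100 bp, against 73.4% of all shared total-labelled peaks. The neuronal-labelled peak was narrower in 145 (59.4%), wider in 96 (39.3%) and equal in 3. Over all shared total-labelled peaks it was narrower in 48.9% and wider in 48.7%. The members were chosen by their total-labelled width, and the sign of the median difference turned with the choice. When the 260 neuronal-labelled peaks of 1400 bp or more were taken as the starting set, the median difference over the 250 with a counterpart was 26 bp.

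**Figure D5:**
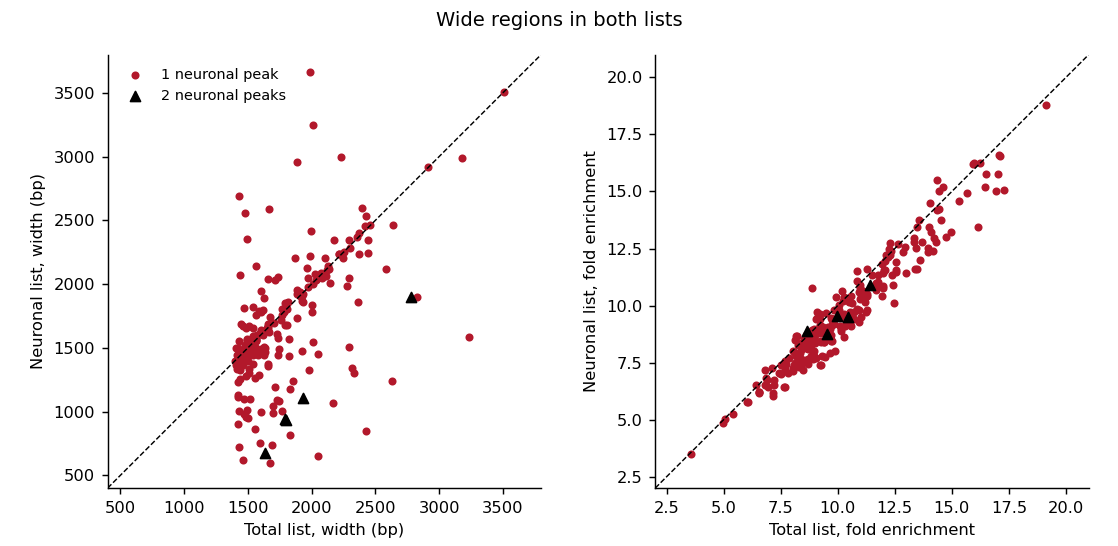
Width in bp (left) and fold enrichment (right) of the 244 wide regions found in both lists, with the neuronal-labelled value on the y axis and the total-labelled value on the x axis. Red points have 1 overlapping neuronal-labelled peak and black triangles 2, for which the widest or the highest is plotted, and the dashed line marks equal values. Width differences run from -1646 to 1673 bp, and log2 fold ratios from -0.32 to 0.28.

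A few regions differed in width by over 1000 bp. The region at psf-3, icd-2 and wwp-1 was 1587 bp wide in the neuronal-labelled list, against 3233 bp in the total-labelled list. At pab-1, the poly(A) binding protein gene, rpl-30, madf-10 and pdpr-1 the widths were 851 bp in the neuronal-labelled and 2427 bp in the total-labelled list. At ceh-43, a homeobox gene of the Distal-less family, they were 651 bp (neuronal-labelled) and 2048 bp (total-labelled). The folds there were 8.34 (neuronal-labelled) and 8.38 (total-labelled). In the other direction, the region at fcho-1 and vig-1 was 3662 bp wide in the neuronal-labelled list and 1989 bp in the total-labelled list. At rib-2, ran-1 and dkc-1 the widths were 2694 bp (neuronal-labelled) and 1431 bp (total-labelled), and at elt-4 and C39B10.7 they were 3245 bp (neuronal-labelled) and 2010 bp (total-labelled).

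Fold enrichment of the same regions was close in both lists. Its median over the 244 was 9.33 in the neuronal-labelled list and 9.86 in the total-labelled list, and the median log2 ratio, neuronal-labelled over total-labelled, was -0.08. The fold was lower in the neuronal-labelled list in 206 of the 244 (84.4%), and over all shared total-labelled peaks this share was 83.4%, so the share among wide regions was near that of the list. The ratio lay within 0.2 of 0 on the log2 scale in 216. The lists also differ in reads at the summit, with a median pileup of 1879 in the neuronal-labelled list and 1252 in the total-labelled list over these 244 regions, and in local background, with medians of 195 reads (neuronal-labelled) and 124 reads (total-labelled). Their part in the ratio was not tested.

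The highest log2 ratio was 0.28, at zfr-1, a gene for a zinc finger protein that binds RNA, with folds of 10.8 in the neuronal-labelled and 8.89 in the total-labelled list. It was the only ratio above 0.2 (0.41% of the 244), a share that was 0.32% over all shared total-labelled peaks. The regions at cup-14 and ndub-8 (0.11), pqn-59 and taf-4 (0.10), usp-3 and rps-6 (0.09), and atg-3 and rbm-39 (0.09) came next. The lowest ratio, -0.32, was found at C41D11.3 and eif-3.H, with folds of 7.41 and 9.27 in the neuronal-labelled and total-labelled lists. It was followed by the region at cdc-37, W08F4.3, W08F4.12 and fbxb-14 with -0.32, by that at zipt-1, psf-2 and F31C3.6 and that at lin-7, Y54G11A.17, elof-1 and agl-1 with -0.30 each, and by R02F2.1 with -0.29. In all, 27 ratios (11.1%) lay below -0.2, against 10.7% over all shared total-labelled peaks.

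The 59 wide regions without a neuronal-labelled peak were among the weaker ones of the total-labelled list. Their authors' −log10 p ranged from 327 to 603 with a median of 411, while it had a median of 753 in the 244 others. Narrower peaks were alike in this, with medians of 443 without and 871 with a neuronal-labelled peak. Of the 122 wide regions at or below 603, the highest value among those lacking a counterpart, 63 had a neuronal-labelled peak. The 181 others lie above that value and have one by the choice of the limit. The highest folds without a counterpart were 10.3, in a region of chromosome V from 2008249 to 2009658 with no gene within 1000 bp, 10.2 at Y50D4A.5 and Y50D4A.1, 10.2 at D2005.3 and D2005.4, and 10.2 at iglr-2, mrps-18A, ZC262.2 and ZC262.4. The remaining 6 of the 10 highest, from 9.40 to 10.09, included swsn-3, a SWI/SNF chromatin remodeller subunit, with laf-1, a helicase gene of P granules, and ntl-3, a subunit of the CCR4-NOT deadenylase. htz-1, for histone H2A.Z, and tbb-1, for a beta-tubulin, also lay at regions without a counterpart, with folds of 5.99 and 6.01.

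In 5 wide regions (1.65%) the neuronal-labelled list had 2 separate peaks. Over all total-labelled peaks, 0.26% were overlapped by 2 or more. The region inside unc-31 spanned 1634 bp in the total-labelled list on chromosome IV from 12785823 to 12787456. The neuronal-labelled peaks there had 546 bp and 678 bp with 420 bp between them, and each held an snRNA gene, ZK897.3 and ZK897.4. At cyp-14A4 and R04D3.2 each of the neuronal-labelled peaks, 935 bp and 595 bp wide, held a tRNA gene. At rpl-22, ify-1, F33G12.6 and C27A2.12 a peak of 1897 bp and a peak of 575 bp stood 204 bp apart, and the narrower held a tRNA gene. The gaps were 160 bp at T02E1.2 and spe-12 and 173 bp at inx-7 and rps-25.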

How the data were processed

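ATAC-seq was carried out on 3 samples of neuronal and 3 of total nuclei. cutadapt 1.9.1, Bowtie2 2.2.6, SAMtools 1.7, Picard, bedtools 2.26, MACS2 and build ce11 are named, per the submitters' processing notes, without role or parameter. Not given in the sources used here are any shift of reads for the Tn5 cut, the treatment of duplicates and how samples were combined. An irreproducible discovery rate (IDR) of 0.1 stands in the names of the lists. Per peak, the authors deposited a score of at most 1000, a fold enrichment (a ratio to local background), a −log10 p-value and a summit offset.

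Peak width is end minus start in the deposited coordinates, which count from 0. Printed starts count from 1, so both printed ends belong to the peak. Peaks overlapped if they shared at least 1 bp, and the widest and the highest overlapping neuronal-labelled peak gave width and fold. All 19971 nuclear protein-coding genes of a RefSeq table of WBcel235, the assembly of ce11, within 1000 bp of a peak were assigned to it. The table holds no strand or exons, so gene starts, exons and introns were not analysed here, and no sequence was used. Pileup and local background were solved from fold and p under default MACS2 formulas, which gave pileups within 0.02 of a whole number for 99.8% of neuronal-labelled and 99.9% of total-labelled peaks. In the widest region, at the ribosomal RNA array, the total-labelled pileup came out as 20774.8, not a whole number. Recovery was tested on made values, whose local backgrounds were lower than most of those found here. Overlaps were tested on shifted copies of the total-labelled list, and gene assignment on a small made example. Python 3.11.15, numpy 2.4.6, scipy 1.17.1, pandas 2.3.3 and matplotlib 3.10.9 were used.

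Deposited q-values were not used. Members and gene lists were chosen with earlier results of these data known. Named regions followed a rule: the 10 widest, the 10 highest, the 10 with most gene ends, the 5 extremes each way of width difference and fold ratio, 10 without and 5 with 2 neuronal-labelled peaks, 3 on each side of the threshold, and up to 4 per gene list. Others, and the small RNA genes, were picked after their values were seen.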

Additional observations from a re-analysis of the deposited data

How the results depend on the processing

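No paired analysis was possible because there is 1 peak list per group and none per sample, so leaving out single samples could not be done either. Of 42 values under alternatives, 26 stayed within the 95% interval of the reported value (counts within 1.5 times), 15 moved and 1 reversed. The reversal was the median width difference, neuronal-labelled minus total-labelled, which was 26 bp when regions were chosen by neuronal-labelled width, where the median log2 fold ratio was -0.0945. The number of regions was 525 from 1200 bp, 163 from 1600 bp and 59 from 2000 bp. From 1600 bp the median fold was 9.07, the share on X 2.45% and the share with a neuronal-labelled peak of that width 55.2%. From 2000 bp, 88.1% were overlapped by a neuronal-labelled peak, the median width difference was -40 bp, the median log2 fold ratio -0.0535 and the median fold 8.82. Among regions with a score of 1000, an alternative chosen after seeing the data, 90.5% were overlapped. The share with 2 or more genes was 75.2% within 500 bp and 60.4% for genes overlapping the peak, and the share covering 2 or more gene ends was 53.8% when peaks were trimmed by 100 bp per side. Why the values moved was not tested.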

Other observations

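Regions that were wide in the neuronal-labelled list only were also found. Of 260 neuronal-labelled peaks of 1400 bp or more, 189 overlapped a wide region of the total-labelled list, 61 overlapped only narrower peaks of it and 10 overlapped none. The widest peak of the neuronal-labelled list, 4003 bp on chromosome III from 8443612 to 8447614, was among the 10. It covered 3 gene ends at ufbp-1, hsp-110, a chaperone gene of the HSP70 superfamily, and rpn-3, a proteasome subunit gene, and had a fold of 5.25. The peak at the chaperonin subunit gene cct-6 and alh-9, with 2126 bp and a fold of 6.10, had no counterpart either. At dmd-6, a DM domain transcription factor gene, the neuronal-labelled peak of 2538 bp (fold 9.71) overlapped a total-labelled peak of 1197 bp (fold 10.6). Over the 71 neuronal-labelled peaks that were not wide in the other list the median width was 1515 bp, and their total-labelled counterparts had a median of 1257 bp.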
